A study of Mus musculus with 12 samples.

Results

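The genes of the constitutive proteasome were examined in C2C12 cells. This established line of mouse myoblasts leaves the cell cycle and fuses into myotubes when serum is withdrawn. The genes were the 34 gene rows, of 21232 in the deposited count table, named Psma1 to Psma7, Psmb1 to Psmb7, Psmc1 to Psmc6 or Psmd followed by a number. The interferon-inducible catalytic genes Psmb8, Psmb9 and Psmb10 were not counted among them. All 34 passed the filter on low counts that left 12736 genes for testing, and the lowest value of any of them in a library was 23.1 CPM (Psmd9 in control), CPM being the counts of a gene scaled to a common library total.

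RNA had been sequenced in 12 libraries, 3 in each of 4 groups. The TNF group had been differentiated for 48 h in the presence of the inflammatory cytokine TNF at 10 ng/ml. The Fbxl2 siRNA group had been differentiated for 48 h after silencing of Fbxl2, which encodes an F-box protein, the substrate-binding part of an SCF ubiquitin ligase. The control group was at 48 h of differentiation, and the proliferation group was kept in growth medium and taken at 0 h. All groups came from the same line. The labels give passages 5 to 10 and C57BL/6 as the strain, an entry that was not checked against the origin of the line. Replicates bear the letters A, B and C, and nothing in the labels ties a letter to its own culture, so a p-value here reflects how libraries of a group spread, in part perhaps for technical reasons. Whether a non-targeting siRNA was given to control or TNF cells is not stated.

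The 26S proteasome degrades proteins that carry ubiquitin chains. Its 20S core is a barrel of stacked rings. The outer alpha rings, built from Psma products, gate the entrance, and the inner beta rings, built from Psmb products, hold the active sites of Psmb5 (chymotrypsin-like), Psmb6 (caspase-like) and Psmb7 (trypsin-like). The 19S cap holds a base, with a ring of Psmc ATPases that unfold substrates and the scaffold and ubiquitin-binding subunits Psmd1, Psmd2 and Psmd4, and a lid that includes the deubiquitinating subunit Psmd14. Psmd5, Psmd9 and Psmd10 encode chaperones that help to assemble the base and are not found in the finished particle. In muscle the ubiquitin-proteasome system is best known for the breakdown of myofibrillar proteins during atrophy. When proteasome activity is short, the transcription factor encoded by Nfe2l1 raises proteasome genes together through antioxidant response elements.

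The promoters of 4 genes are shown because the results turn on those genes: Psma7 fell most during differentiation, Psmd10 rose most with TNF, and Psmb5 and Psmb6 carry active sites. Psmb7 also carries an active site but had no promoter in the set used, so its motifs were not examined. Each sequence is the 250 bases before the RefSeq start in GRCm38.p6, printed 5′ to 3′ on the gene's own strand. Psmd10 lies on the minus strand at chrX:140956712-140956961, Psma7 on the minus strand at chr2:180042465-180042714, Psmb5 on the minus strand at chr14:54617996-54618245 and Psmb6 on the plus strand at chr11:70525107-70525356. Capitals mark the antioxidant response core TGACNNNGC, the NF-Y box CCAAT and the GC box GGGCGG, each on either strand, so that CCAAT also appears as ATTGG and GGGCGG as CCGCCC.
Psmd10: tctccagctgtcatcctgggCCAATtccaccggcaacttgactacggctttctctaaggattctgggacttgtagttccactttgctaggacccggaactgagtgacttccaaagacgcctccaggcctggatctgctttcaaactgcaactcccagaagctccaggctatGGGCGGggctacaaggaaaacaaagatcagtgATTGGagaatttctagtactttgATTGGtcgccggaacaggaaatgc
Psma7: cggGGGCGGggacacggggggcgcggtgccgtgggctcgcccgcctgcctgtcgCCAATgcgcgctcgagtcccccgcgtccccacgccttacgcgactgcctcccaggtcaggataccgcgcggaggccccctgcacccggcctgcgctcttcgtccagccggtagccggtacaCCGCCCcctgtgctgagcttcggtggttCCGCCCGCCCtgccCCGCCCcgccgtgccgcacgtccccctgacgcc
Psmb5: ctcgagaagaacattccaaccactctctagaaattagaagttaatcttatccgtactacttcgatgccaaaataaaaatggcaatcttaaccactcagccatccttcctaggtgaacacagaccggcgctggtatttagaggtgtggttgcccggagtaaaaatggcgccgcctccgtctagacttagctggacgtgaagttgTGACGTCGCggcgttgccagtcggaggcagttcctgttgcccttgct
Psmb6: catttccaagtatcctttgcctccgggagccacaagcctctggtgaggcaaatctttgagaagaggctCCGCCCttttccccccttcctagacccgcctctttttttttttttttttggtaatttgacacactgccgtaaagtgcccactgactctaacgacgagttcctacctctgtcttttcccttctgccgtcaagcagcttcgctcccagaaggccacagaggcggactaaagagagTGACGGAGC

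Psmb5 held TGACGTCGC starting 47 bases before the start, and Psmb6 held TGACGGAGC starting 9 bases before it. Psmd10 held 3 CCAAT boxes and no TGACNNNGC, and Psma7 held GC boxes with a single CCAAT box. Over the table's window of 250 bases before and 50 after the start, 28 of the 34 genes had a promoter. TGACNNNGC was found in 5 of the 28 (17.9%, in Psmb5, Psmb6, Psmc6, Psmd9 and Psmd12), against 14.1% of the 12396 promoters of tested genes. In the 150 bases before and 50 after the start it was found in 3 (10.7%), against 10.8%. CCAAT was found in 11 (39.3%), against 37.9%, and GGGCGG in 18 (64.3%), against 61.3%. The 28 genes had 30 promoters. A gene counted if any of its promoters held the motif, whereas the share of tested genes counts each promoter. With that difference in unit, the shares lay near those of expressed genes as a whole. In 1 promoter, that of Psmd9, hits of different motifs overlapped. A match describes letters in the window and is not evidence of binding.

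Library totals ran from 26416978 to 32917763 counts. For CPM the totals were adjusted by TMM factors. The muscle markers Myod1, Myf5, Des, Cdh15, Myog, Myh3 and Ckm were detected in every group and summed to between 1230.3 and 2993 CPM in a library, whereas the 4 macrophage markers summed to at most 1.32 CPM, the 3 endothelial markers to at most 0.409 CPM and the 3 adipocyte markers to at most 0.0697 CPM. The macrophage marker Adgre1 was at 0 counts in every library. Fbxl2 itself averaged 22.2 ± 1.52 CPM in Fbxl2 siRNA libraries and 32.9 ± 1.30 CPM in control libraries (SD, n = 3 each). The log2 fold change was -0.57 (SE 0.06, edgeR adjusted p = 1.67e-07), so a large part of its mRNA remained. Fbxl2 was also called lower in TNF over control (log2 fold change -0.19, SE 0.06, edgeR adjusted p = 0.0137). That call was lost in 3 of 15 alternatives, with adjusted p from 0.00123 to 0.0892. In control over proliferation Fbxl2 was higher (log2 fold change 0.34, SE 0.06, edgeR adjusted p = 4.89e-05).

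Together the 34 genes summed to 4917, 5044 and 4997 CPM in the TNF libraries, 5145, 5444 and 5186 CPM in the Fbxl2 siRNA libraries, 4538, 4475 and 4533 CPM in the control libraries and 6164, 6899 and 6501 CPM in the proliferation libraries. The 4 groups did not overlap in this sum, with proliferation highest, then Fbxl2 siRNA, then TNF, then control. The same order of group means was found in 24 of the 34 genes. Proliferation had the highest mean in 32 genes, Psmd10 being highest with TNF and Psmc3 in control, and control had the lowest mean in 29. In these genes libraries of a group also differed as a block: 27 of the 34 genes were highest in replicate B among the proliferation libraries, and 28 in replicate B among the Fbxl2 siRNA libraries. Neither these counts nor the orders of group means were made over all tested genes, so no background stands beside them. In bulk RNA, fewer cells of a type and less RNA per cell cannot be told apart.

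**Figure D1:**
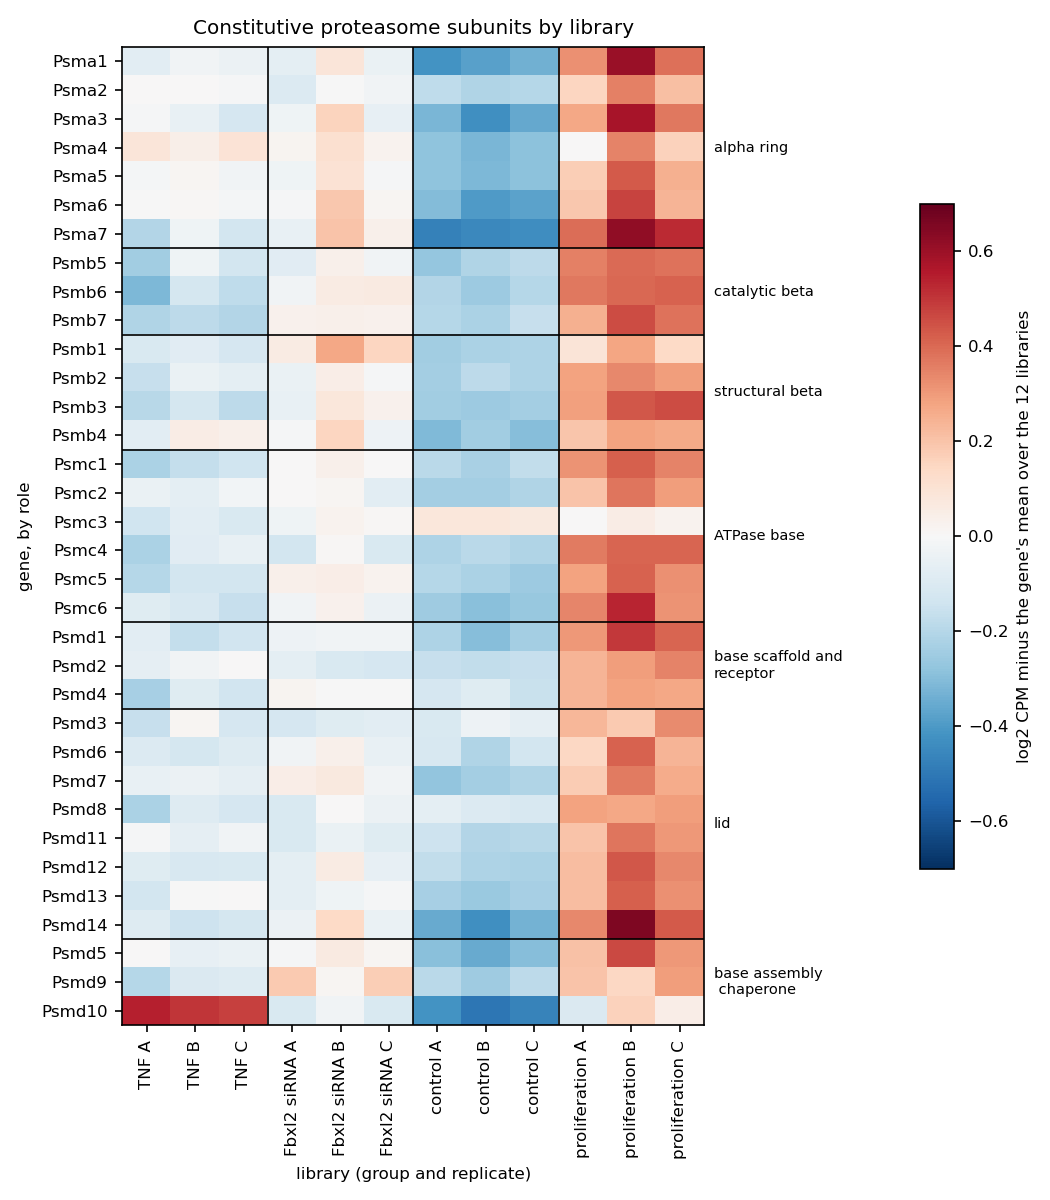
Level of each of the 34 constitutive proteasome genes (rows, by role) in each of the 12 libraries (columns), as log2 CPM minus the gene's mean over the 12 libraries, from -0.51 (blue) to 0.65 (red). The proliferation columns are red in nearly every row and the control columns blue, except for Psmc3. Psmd10 is darkest in the 3 TNF columns.

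The first comparison asked how the proteasome genes differed between myoblasts differentiated for 48 h and proliferating myoblasts. Of the 34, 33 fell in control cells and 1, Psmc3, was not called. Across all tested genes 38.9% were called lower and 38.4% higher. The median log2 fold change was -0.54 over the 34 genes and -0.00084 over all genes tested, and 33 of the 34 were lower by more than 1.2-fold, as were 33.1% of all genes. None of the 34 was called higher by edgeR, at an unadjusted p under 0.05 or by DESeq2. In 33 of the 34 every control library lay below every proliferation library, as in 39.7% of all genes. A gene was called at a Benjamini-Hochberg adjusted p under 0.05 over all genes tested.

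The alpha ring held several of the deepest falls. Psma7, an alpha subunit, had 116, 117 and 118 CPM in the control libraries, against 209.9, 247 and 230.3 CPM in the proliferation libraries (log2 fold change -0.97, SE 0.06, edgeR adjusted p = 3.78e-11). The 3 control libraries were tightly grouped and far below each proliferation library. Psma1 had 85.6, 88.0 and 90.7 CPM in control and 143, 174 and 149 CPM in proliferation libraries (log2 fold change -0.82, SE 0.06, edgeR adjusted p = 1.04e-10). The other 5 alpha genes fell by between 0.44 (Psma2) and 0.78 (Psma3) on the log2 scale, and no alpha gene overlapped between the groups.

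All 3 catalytic genes fell, and by similar amounts. Psmb5 had 68.9, 71.8 and 73.1 CPM in control and 106, 109 and 108 CPM in proliferation libraries (log2 fold change -0.60, SE 0.05, edgeR adjusted p = 1.31e-09). Psmb6 had 98.7, 95.3 and 99.2 CPM in control and 147, 150.1 and 152 CPM in proliferation libraries (log2 fold change -0.61, SE 0.05, edgeR adjusted p = 3.03e-10). Psmb7 had 154, 151 and 158 CPM in control and 209.7, 242 and 229.7 CPM in proliferation libraries (log2 fold change -0.56, SE 0.05, edgeR adjusted p = 1.18e-09). In each of these genes every control library lay below every proliferation library. Among the 4 structural beta genes, which have no active site, Psmb3 fell most, with 86.6, 85.9 and 86.9 CPM in control and 125, 138 and 141 CPM in proliferation libraries (log2 fold change -0.64, SE 0.05, edgeR adjusted p = 2.18e-10), and Psmb1 least, at -0.40 (adjusted p = 9.73e-07).

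In the cap, 5 of 6 ATPase genes fell. Psmc6 had 161, 155 and 158 CPM in control and 242, 276 and 237 CPM in proliferation libraries (log2 fold change -0.67, SE 0.05, edgeR adjusted p = 2.31e-10), and Psmc1, Psmc2, Psmc4 and Psmc5 had log2 fold changes between -0.60 and -0.52. Psmc3 was the exception. It had 294, 294 and 292 CPM in control and 278, 288 and 283 CPM in proliferation libraries, a difference that did not pass the test (log2 fold change 0.05, SE 0.04, edgeR adjusted p = 0.274, 95% confidence interval -0.04 to 0.14). Its control libraries lay narrowly above its proliferation libraries. Psmc3 (chr2:91054009-91066369, plus strand, GRCm38) shares 10.5% of its exonic bases with Slc39a13 on the opposite strand, a zinc transporter gene that averaged 85.8 ± 2.58 CPM in control and 44.0 ± 2.48 CPM in proliferation libraries. The sources used here do not say whether the counting used strand, and the part of these shared bases in the level of Psmc3 was not tested.

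The scaffold and receptor genes and the lid fell throughout. Psmd1, a scaffold of the base, had 256, 242 and 252 CPM in control and 367, 419 and 395 CPM in proliferation libraries (log2 fold change -0.65, SE 0.05, edgeR adjusted p = 1.43e-10). Psmd14, the metalloprotease that removes ubiquitin chains as substrates enter, had 120.3, 114 and 122 CPM in control and 194, 242 and 207 CPM in proliferation libraries (log2 fold change -0.85, SE 0.07, edgeR adjusted p = 7.17e-10). The groups were apart in both genes. The other 7 lid genes had log2 fold changes between -0.56 (Psmd13) and -0.32 (Psmd3), so the lid ranged more widely than the catalytic genes. Among the assembly chaperones Psmd5 had 53.2, 51.1 and 52.9 CPM in control and 75.0, 89.7 and 80.3 CPM in proliferation libraries (log2 fold change -0.64, SE 0.06, edgeR adjusted p = 1.38e-09), Psmd10 changed by -0.50 (adjusted p = 1.77e-07) and Psmd9 by -0.42 (adjusted p = 2.65e-06).

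Beside these falls, the proliferation marker Mki67 averaged 92.3 ± 6.80 CPM in control and 268 ± 16.0 CPM in proliferation libraries (SD, n = 3 each; log2 fold change -1.54, SE 0.06, edgeR adjusted p = 4.47e-15), and the myogenic factor Myog averaged 302 ± 22.0 CPM in control and 22.5 ± 2.31 CPM in proliferation libraries. Their part in the result was not tested. The count of 33 was the same with any library left out. Transcripts at least 95% identical over 200 bases exist elsewhere in the annotation for Psma3, Psma4, Psma5, Psmb3, Psmb5, Psmc1, Psmd2 and Psmd11, so that reads of these genes could have been split or added to in counting. Psmd13 shares 13.9% of its exonic bases with Sirt3 on the opposite strand, Psmb5 shares 12.1% with the microRNA gene Mir686 and Psmd1 shares 9.67% with Gm21972, each on the same strand, and the part of these bases in the levels was not tested.

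**Figure D2:**
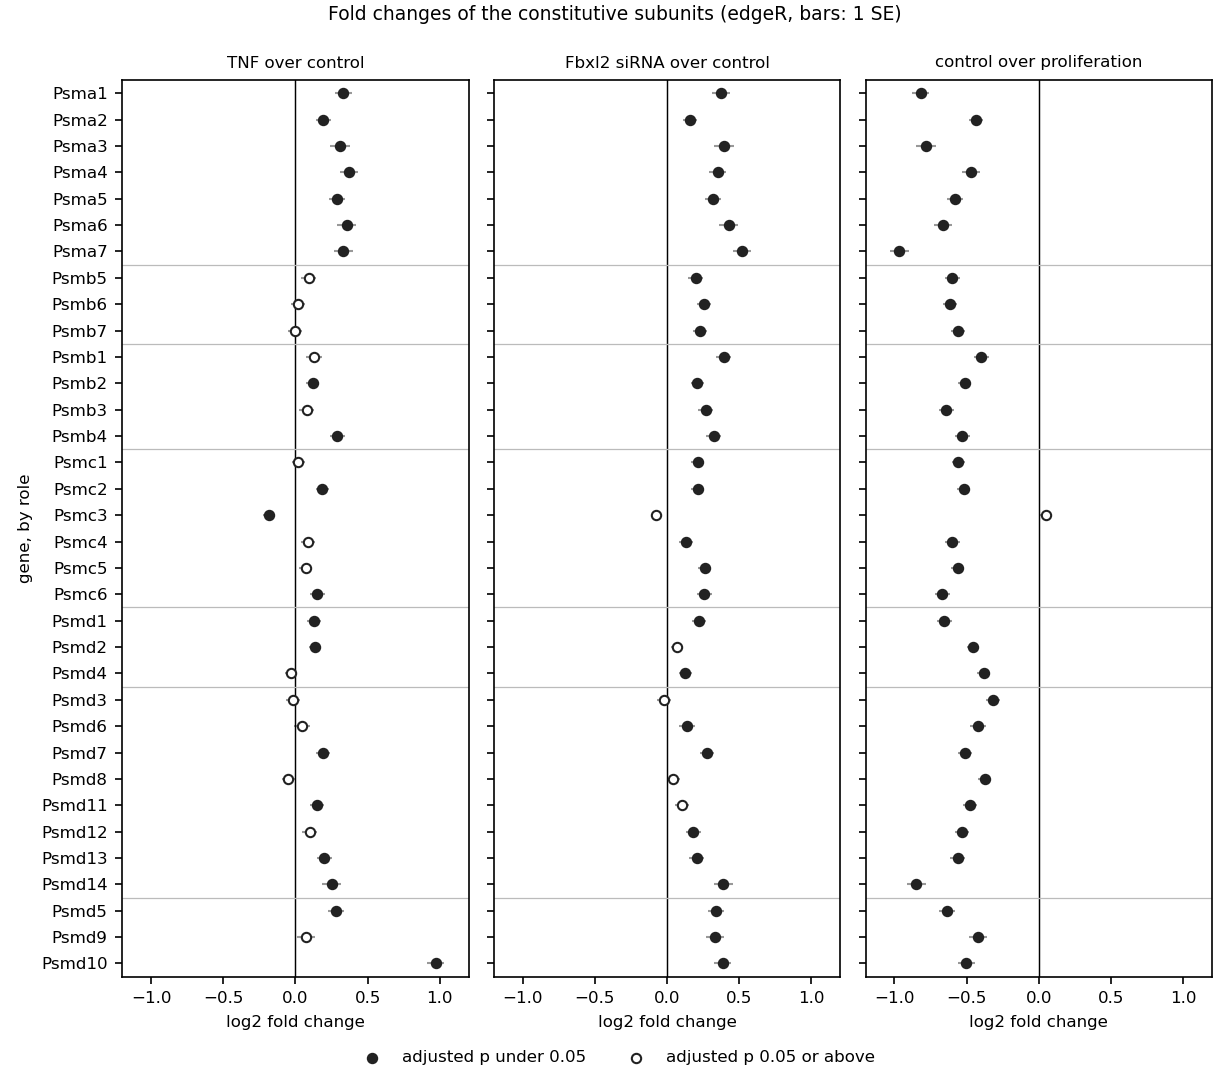
Log2 fold change of each gene (rows, by role) in TNF over control, Fbxl2 siRNA over control and control over proliferation, with bars of 1 SE; filled points have an edgeR adjusted p under 0.05. In the right panel 33 points lie left of 0 and are filled. In the left panel the 7 alpha genes lie between 0.19 and 0.37, the 3 catalytic genes between -0.01 and 0.09 and Psmd10 at 0.97, whereas in the middle panel the catalytic genes lie between 0.20 and 0.25.

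The second comparison asked what TNF did to these genes when it was present during differentiation. Of the 34, 19 rose in TNF libraries, 1 fell and 14 were not called, where 31.0% of all tested genes were called higher and 23.6% lower. The median log2 fold change was 0.13 over the 34 genes and 0.03 over all genes tested. The rises were small apart from that of Psmd10, with 9 genes higher by more than 1.2-fold, as were 22.8% of all genes. In 22 of the 34 every TNF library lay above every control library, as in 36.2% of all genes. The groups of genes within the particle differed in how many were called: all 7 alpha genes, none of the 3 catalytic genes, 2 of 4 structural beta genes, 2 of 6 ATPase genes, 2 of 3 scaffold and receptor genes, 4 of 8 lid genes and 2 of 3 assembly chaperones rose.

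Psmd10 encodes gankyrin, an ankyrin-repeat chaperone of the base that is also known to bind the retinoblastoma protein and the p53 ligase MDM2 (chrX:140948429-140956728, minus strand, GRCm38). It had 62.6, 60.7 and 59.7 CPM in the TNF libraries, against 32.1, 30.1 and 31.0 CPM in the control libraries (log2 fold change 0.97, SE 0.06, edgeR adjusted p = 1.37e-11). The TNF libraries were tightly grouped, far above each control library and above each proliferation library. Its log2 fold change ranged from 0.92 to 1.00 over 15 alternative settings. The chaperone Psmd5 rose by less, with 65.4, 62.6 and 63.2 CPM in TNF and 53.2, 51.1 and 52.9 CPM in control libraries (log2 fold change 0.28, SE 0.06, edgeR adjusted p = 0.00023), and Psmd9 was not called, at 0.07 (adjusted p = 0.329).

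In the alpha ring Psma4 had 162, 158 and 164 CPM in TNF and 126, 123 and 125 CPM in control libraries (log2 fold change 0.37, SE 0.06, edgeR adjusted p = 3.1e-05). Psma6 had 172, 174 and 171 CPM in TNF and 139.8, 131 and 133 CPM in control libraries (log2 fold change 0.35, SE 0.06, edgeR adjusted p = 9.1e-05). In both, and in the other 5 alpha genes, every TNF library lay above every control library, with log2 fold changes from 0.19 (Psma2) upwards. Psma2 lost its call without the libraries of replicate C in all groups (adjusted p = 0.0694), and the other 6 kept theirs under each alternative run.

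The catalytic genes did not follow the alpha ring. Psmb5 had 70.2, 81.4 and 76.1 CPM in TNF and 68.9, 71.8 and 73.1 CPM in control libraries (log2 fold change 0.09, SE 0.05, edgeR adjusted p = 0.152, 95% confidence interval -0.02 to 0.20). Psmb6 had 91.7, 104 and 101 CPM in TNF and 98.7, 95.3 and 99.2 CPM in control libraries (log2 fold change 0.02, SE 0.05, edgeR adjusted p = 0.79, interval -0.09 to 0.12). Psmb7 had 152, 155 and 153 CPM in TNF and 154, 151 and 158 CPM in control libraries (log2 fold change -0.01, SE 0.05, edgeR adjusted p = 0.931, interval -0.11 to 0.09). TNF and control libraries overlapped in all 3. None was called in either direction by edgeR, at an unadjusted p under 0.05 or by DESeq2, although without TNF replicate A Psmb5 passed (log2 fold change 0.15, adjusted p = 0.0226). The upper ends of the intervals lay at 0.20 or below. Psmb7 (chr2:38588036-38644087, GRCm38) shares 34.9% of its exonic bases with Nek6 on the opposite strand, a kinase gene that averaged 57.7 ± 2.78 CPM in TNF and 68.2 ± 1.39 CPM in control libraries, and its part in the level of Psmb7 was not tested.

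Of the structural beta genes Psmb4 rose, with 163, 178 and 176 CPM in TNF and 138, 145 and 139.9 CPM in control libraries (log2 fold change 0.29, SE 0.05, edgeR adjusted p = 7.47e-05), while Psmb1 stood at 0.13 (adjusted p = 0.0517). Psmc3 was the single gene to fall, with 253, 265 and 258 CPM in TNF and 294, 294 and 292 CPM in control libraries (log2 fold change -0.18, SE 0.04, edgeR adjusted p = 0.000768). Its neighbour Slc39a13 averaged 100.4 ± 8.27 CPM in TNF and 85.8 ± 2.58 CPM in control libraries, and the part of the shared bases was not tested. Psmd2, the other large scaffold of the base, had 417, 428 and 436 CPM in TNF and 389.6, 387 and 389.7 CPM in control libraries (log2 fold change 0.14, SE 0.04, edgeR adjusted p = 0.0114). In the lid Psmd7, the partner of Psmd14, had 149, 149.7 and 148 CPM in TNF and 127, 131 and 133 CPM in control libraries (log2 fold change 0.19, SE 0.05, edgeR adjusted p = 0.00209), and Psmd14 rose by 0.25 (adjusted p = 0.00361). Psmd3 at a log2 fold change of -0.02 (adjusted p = 0.79) and Psmd8 at -0.05 (adjusted p = 0.362) did not pass.

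Several of the smaller rises did not hold under many of the alternatives. Of 15 alternatives, the call was lost in 12 for Psmb2, 10 for Psmd1, 8 for Psmc6, 5 for Psmd2 and 3 for Psmd11. The adjusted p ranged from 0.00904 to 0.313 for Psmb2, 0.0325 to 0.219 for Psmd1, 0.00661 to 0.112 for Psmc6, 0.00401 to 0.225 for Psmd2 and 0.0084 to 0.179 for Psmd11. Without the libraries of replicate C in all groups the count of genes that rose was 11. Beside the rises, Mki67 averaged 171 ± 10.8 CPM in TNF and 92.3 ± 6.80 CPM in control libraries (log2 fold change 0.89, SE 0.06, edgeR adjusted p = 9.39e-11) and Myog averaged 79.9 ± 10.6 CPM in TNF and 302 ± 22.0 CPM in control libraries (log2 fold change -1.92, SE 0.17, edgeR adjusted p = 9.46e-06). Their part was not tested.

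**Figure D3:**
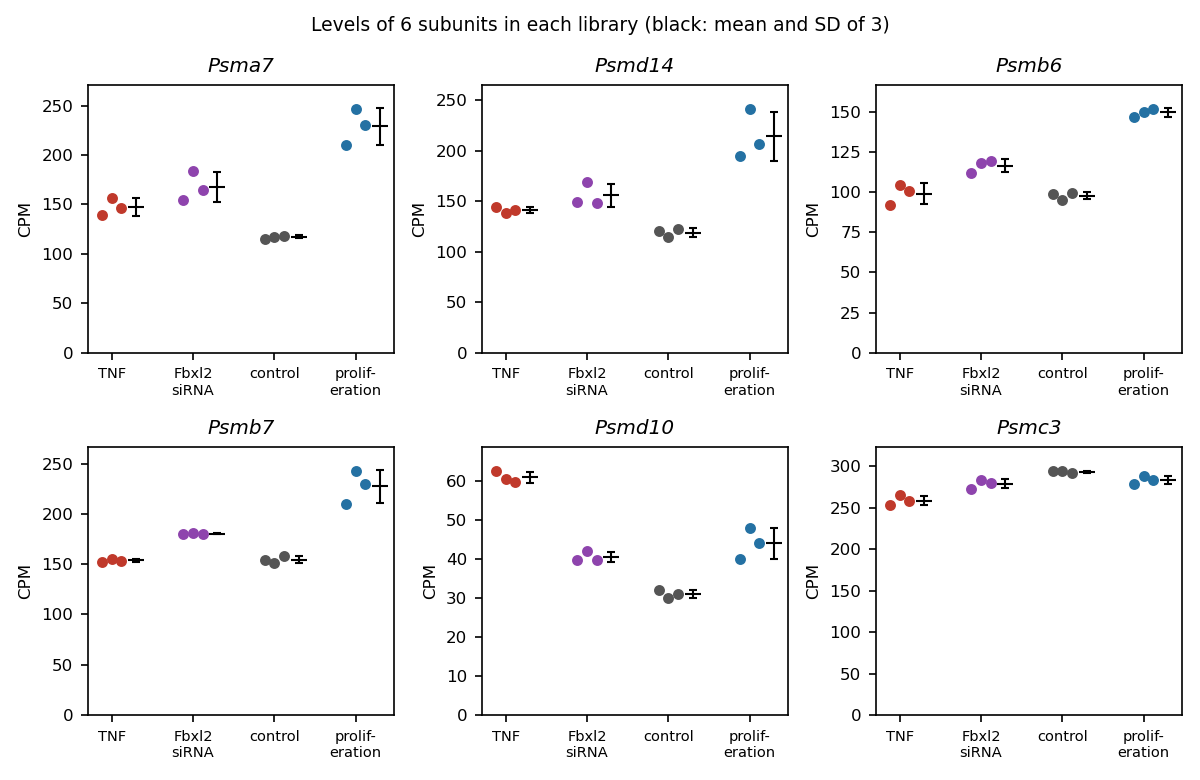
Level of 6 genes in each library, in CPM from 0, with the mean and SD of 3 libraries in black, in the order TNF, Fbxl2 siRNA, control and proliferation. Psma7 and Psmd14 are intermediate with TNF and Fbxl2 siRNA. Psmb6 and Psmb7 with TNF sit at the control level and with Fbxl2 siRNA above it, Psmd10 is highest with TNF (59.7 to 62.6 CPM), and Psmc3 is lowest with TNF (253 to 265 CPM).

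The third comparison asked what changed after Fbxl2 silencing. Here 29 of the 34 genes rose, none was called lower and 5 (Psmc3, Psmd2, Psmd3, Psmd8 and Psmd11) were not called, where 34.1% of all tested genes were called higher and 29.8% lower. The median log2 fold change was 0.24 over the 34 genes and 0.03 over all genes tested, and 14 genes were higher by more than 1.2-fold, as were 27.2% of all genes. In 31 of the 34 every Fbxl2 siRNA library lay above every control library, as in 38.6% of all genes. The rises took in the 7 alpha genes, the 3 catalytic genes, the 4 structural beta genes, 5 of 6 ATPase genes, 2 of 3 scaffold and receptor genes, 5 of 8 lid genes and the 3 assembly chaperones. No gene was lower at an unadjusted p under 0.05 by edgeR, and DESeq2 called 1, Psmc3.

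Psma7 again moved most. It had 154, 184 and 164 CPM in the Fbxl2 siRNA libraries, against 116, 117 and 118 CPM in the control libraries (log2 fold change 0.52, SE 0.06, edgeR adjusted p = 8.58e-07). Psma6 had 172, 197 and 175 CPM in Fbxl2 siRNA and 139.8, 131 and 133 CPM in control libraries (log2 fold change 0.43, SE 0.06, edgeR adjusted p = 8.97e-06), and Psma3 had 202, 230.2 and 198 CPM in Fbxl2 siRNA and 165, 154 and 161 CPM in control libraries (log2 fold change 0.39, SE 0.07, edgeR adjusted p = 7.07e-05). Every Fbxl2 siRNA library lay above every control library in these genes, with replicate B the highest.

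The catalytic genes rose together after silencing. Psmb5 had 78.5, 85.1 and 81.6 CPM in Fbxl2 siRNA and 68.9, 71.8 and 73.1 CPM in control libraries (log2 fold change 0.20, SE 0.05, edgeR adjusted p = 0.00237). Psmb6 had 112, 118 and 119 CPM in Fbxl2 siRNA and 98.7, 95.3 and 99.2 CPM in control libraries (log2 fold change 0.25, SE 0.05, edgeR adjusted p = 0.000134). Psmb7 had 180.1, 181 and 180.3 CPM in Fbxl2 siRNA and 154, 151 and 158 CPM in control libraries (log2 fold change 0.23, SE 0.05, edgeR adjusted p = 0.000381). The groups did not overlap in any of the 3. Nek6, which overlaps Psmb7, averaged 63.9 ± 3.08 CPM in Fbxl2 siRNA and 68.2 ± 1.39 CPM in control libraries.

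Psmb1, a structural beta gene, had 209.7, 243 and 223 CPM in Fbxl2 siRNA and 170.2, 172 and 173 CPM in control libraries (log2 fold change 0.39, SE 0.05, edgeR adjusted p = 2.39e-06). The ATPase gene Psmc5 had 130.3, 131 and 129 CPM in Fbxl2 siRNA and 111, 109 and 107 CPM in control libraries (log2 fold change 0.26, SE 0.04, edgeR adjusted p = 3.67e-05). Psmd1 of the base had 290.0, 293 and 292 CPM in Fbxl2 siRNA and 256, 242 and 252 CPM in control libraries (log2 fold change 0.22, SE 0.05, edgeR adjusted p = 0.000546). The groups were apart in these 3 genes. In the lid Psmd7 had 159, 162 and 152 CPM in Fbxl2 siRNA and 127, 131 and 133 CPM in control libraries (log2 fold change 0.27, SE 0.05, edgeR adjusted p = 4.55e-05), and Psmd14 rose by 0.39 (adjusted p = 4.71e-05). Psmd10 had 39.9, 42.1 and 39.8 CPM in Fbxl2 siRNA and 32.1, 30.1 and 31.0 CPM in control libraries (log2 fold change 0.38, SE 0.06, edgeR adjusted p = 1.26e-05), close in size to the rises of Psmd5 at 0.34 (adjusted p = 2.41e-05) and Psmd9 at 0.33 (adjusted p = 9.16e-05).

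Psmc3 had 273, 283 and 280.1 CPM in Fbxl2 siRNA and 294, 294 and 292 CPM in control libraries (log2 fold change -0.07, SE 0.04, edgeR adjusted p = 0.121), apart and lower but not called. It was called lower under RLE size factors (adjusted p = 0.0339), on library totals alone (0.0319), with only the 2 groups fitted (0.0248) and by DESeq2 (0.00756). Slc39a13, which overlaps Psmc3, was also lower, at 74.2 ± 2.34 CPM in Fbxl2 siRNA and 85.8 ± 2.58 CPM in control libraries (log2 fold change -0.21, SE 0.06, edgeR adjusted p = 0.00308). The part of the shared bases in the level of Psmc3 was not tested here either. Over 15 alternatives the adjusted p ranged from 0.0173 to 0.158 for Psmc4, 0.0135 to 0.273 for Psmd4 and 0.0136 to 0.188 for Psmd6, whose rises were the smallest called, and the call was lost in 10 of them for Psmc4, 7 for Psmd4 and 10 for Psmd6. Beside the rises, Mki67 averaged 175 ± 8.70 CPM in Fbxl2 siRNA and 92.3 ± 6.80 CPM in control libraries (log2 fold change 0.93, SE 0.06, edgeR adjusted p = 5.48e-11) and Myog averaged 104 ± 23.9 CPM in Fbxl2 siRNA and 302 ± 22.0 CPM in control libraries (log2 fold change -1.54, SE 0.17, edgeR adjusted p = 3.3e-05), and their part was not tested.

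TNF and Fbxl2 silencing were both set against the same control libraries, so their rises are not independent of each other, and the treated groups were therefore also compared directly. In TNF over Fbxl2 siRNA, 10 of the 34 genes were lower and 1 higher, where 30.6% of all tested genes were called lower and 29.9% higher. A share of 10 in 34 is near that background. The genes that were lower with TNF included the catalytic genes Psmb6, which averaged 98.9 ± 6.51 CPM with TNF and 116 ± 4.02 CPM with Fbxl2 siRNA (SD, n = 3 each; log2 fold change -0.24, SE 0.05, edgeR adjusted p = 0.00032), and Psmb7, which averaged 154 ± 1.58 CPM with TNF and 180.3 ± 0.207 CPM with Fbxl2 siRNA (log2 fold change -0.23, SE 0.05, edgeR adjusted p = 0.000339). Psmb5 did not pass, at a log2 fold change of -0.11 (adjusted p = 0.0791). In the alpha ring Psma7 was lower with TNF (log2 fold change -0.19, SE 0.06, edgeR adjusted p = 0.0169) and the other 6 genes were not called, with log2 fold changes between -0.08 and 0.04. The other genes lower with TNF were Psmb1, Psmb3, Psmc1, Psmc3, Psmc5, Psmd4 and Psmd9. Psmd10 was the gene that was higher (log2 fold change 0.59, SE 0.06, edgeR adjusted p = 2.41e-08). Without the libraries of replicate C in all groups 6 genes were lower, and on library totals alone 17 were.

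Neither treated group reached the level of proliferating cells for most genes. In TNF over proliferation 32 of the 34 were lower and 1, Psmd10, was higher, where 36.5% of all tested genes were called lower and 36.3% higher. Psmd10 averaged 61.0 ± 1.47 CPM with TNF and 44.0 ± 4.01 CPM in proliferation (log2 fold change 0.47, SE 0.06, edgeR adjusted p = 2.91e-07), and Psma4, at -0.10 (adjusted p = 0.136), was not called. In Fbxl2 siRNA over proliferation 29 were lower and none was called higher by edgeR, at an unadjusted p under 0.05 or by DESeq2, where 31.1% of all tested genes were called lower and 30.9% higher. The 5 not called were Psma4, Psmb1, Psmc3, Psmd9 and Psmd10. Psmb1 averaged 225 ± 16.7 CPM with Fbxl2 siRNA and 227 ± 15.1 CPM in proliferation, a log2 fold change of -0.01 with a 95% confidence interval of -0.12 to 0.10 (edgeR adjusted p = 0.907). The median log2 fold change was -0.38 for TNF and -0.33 for Fbxl2 siRNA, against 0.00042 and 0.0034 over all genes tested.

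The inducible catalytic genes, whose products replace the constitutive ones during assembly of the immunoproteasome, were set beside their partners per length. Levels were divided by the length that the exons of all coding transcripts of a gene cover together. For some genes this length exceeds that of the longest coding transcript, as in Psmb1 with 3427 against 1970 bases. Comparisons between genes on this scale are therefore rough. Psmb8 made up 28.1%, 30.1% and 31.6% of the summed CPM per kilobase of Psmb8 and Psmb5 in the TNF libraries, 9.28%, 9.67% and 8.58% in the Fbxl2 siRNA libraries, 4.15%, 4.66% and 4.60% in the control libraries and 0.133%, 0.11% and 0.0983% in the proliferation libraries. Psmb10 made up 34.2% ± 2.07 of its pair with Psmb7 with TNF, 14.3% ± 0.459 with Fbxl2 siRNA, 11.1% ± 0.992 in control and 3.91% ± 0.357 in proliferation (SD, n = 3 each). Psmb9 remained the small part of its pair with Psmb6, at 5.10% ± 0.389 with TNF, 1.16% ± 0.168 with Fbxl2 siRNA, 0.454% ± 0.0979 in control and 0.0388% ± 0.0234 in proliferation. The groups did not overlap in any of the 3 pairs. In mRNA and on these lengths the constitutive gene was thus the larger part of each pair in every library, TNF included. The size of a share depends on the lengths, which were 1669 bases for Psmb8 and 899 for Psmb5. In CPM alone, Psmb8 averaged 60.5 and Psmb5 75.9 with TNF. Psmb7 shares 34.9% of its exonic bases with Nek6, and the part of these bases in the share of Psmb10 was not tested.

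The shift in these shares came with rises of the inducible genes while, with TNF, the constitutive partners were not called. With TNF over control Psmb8 rose by a log2 fold change of 3.29 (adjusted p = 1.45e-15), Psmb9 by 3.58 (adjusted p = 3.14e-13) and Psmb10 by 2.06 (adjusted p = 2.25e-15). With Fbxl2 siRNA over control Psmb8 rose by a log2 fold change of 1.32 (adjusted p = 6.35e-09), Psmb9 by 1.62 (adjusted p = 8.76e-07) and Psmb10 by 0.66 (adjusted p = 2.41e-07), beside rises of all 3 constitutive partners. In control over proliferation Psmb8 rose by a log2 fold change of 4.73 (adjusted p = 2.1e-12), Psmb9 by 2.86 (adjusted p = 1.67e-06) and Psmb10 by 1.06 (adjusted p = 5.94e-10), opposite in sign to the constitutive partners. Psmb8 in proliferation was near the detection floor, at 0.228 ± 0.0332 CPM where 3 counts make about 0.1 CPM, and Psmb9 was lower still, at 0.122 ± 0.0734 CPM with 1 library below that floor. The shares of both in proliferation, and their fold changes over it, rest on few counts.

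**Figure D4:**
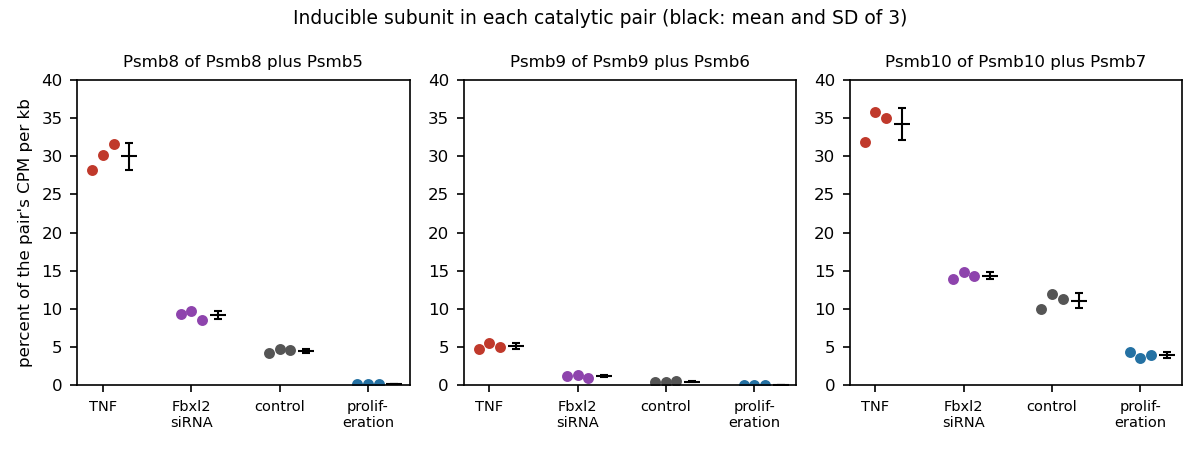
Share of the inducible gene in the summed CPM per kilobase of each catalytic pair (percent, vertical axis from 0) in each library, with the mean and SD of 3 libraries in black, in the order TNF, Fbxl2 siRNA, control and proliferation. Psmb8 and Psmb10 reach between 28.1% and 35.8% of their pairs with TNF, and Psmb9 stays below 6%.

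Per length, on the same rough scale, the 34 genes were not equally abundant. In proliferating cells the median was 187 CPM per kilobase for the catalytic genes, 151 for the structural beta genes, 125 for the alpha ring, 126 for the scaffold and receptor genes, 125.0 for the ATPase genes, 89.7 for the lid and 18.6 for the assembly chaperones. Psmb7 (196 CPM per kilobase) and Psma7 (194) stood highest and Psmd9 (12.2) lowest. In control cells the highest gene was Psmc3, at 143 CPM per kilobase, where Psma7 had 99.2. Psmd10 had 41.5 CPM per kilobase with TNF, 27.6 with Fbxl2 siRNA, 21.2 in control and 30.0 in proliferation, below the median of every class of particle subunits in each group. The assembly chaperones were the class of lowest median in each of the 4 groups, TNF included.

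Pomp and the Psmg products are chaperones that build the 20S core. Pomp, Psmg1, Psmg2, Psmg3 and Psmg4 all fell in control over proliferation, with Psmg1 at a log2 fold change of -0.96 (adjusted p = 4.46e-11), Pomp at -0.47 (adjusted p = 9.55e-08) and Psmg2 at -0.64 (adjusted p = 6.82e-08). With TNF over control 4 of the 5 rose, with the smallest adjusted p for Psmg1 at a log2 fold change of 0.53 (adjusted p = 1.53e-06), Psmg4 at 0.66 (adjusted p = 2.09e-06) and Psmg2 at 0.30 (adjusted p = 0.00183), and Pomp rose by 0.22 (adjusted p = 0.002). With Fbxl2 siRNA over control all 5 rose, with the smallest adjusted p for Psmg1 at a log2 fold change of 0.62 (adjusted p = 1.39e-07), Pomp at 0.33 (adjusted p = 2.25e-05) and Psmg4 at 0.46 (adjusted p = 0.000178). The median of these 5 genes was -0.56 in control over proliferation, 0.30 with TNF and 0.33 with Fbxl2 siRNA, beside all-gene medians of -0.00084, 0.03 and 0.03. For these and the lists that follow, the shares of all tested genes called higher and lower were 38.4% and 38.9% in control over proliferation, 31.0% and 23.6% in TNF over control, and 34.1% and 29.8% in Fbxl2 siRNA over control.

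Other parts of the 26S particle carry other symbols. In control over proliferation all 6 tested genes of this list fell, with the smallest adjusted p for the deubiquitinase genes Uchl5 at a log2 fold change of -1.29 (adjusted p = 2.9e-13) and Usp14 at -0.55 (adjusted p = 1.7e-07) and the small lid gene Shfm1 at -0.35 (adjusted p = 1.74e-07), and the ubiquitin receptor gene Adrm1 stood at -0.26 (adjusted p = 5.82e-05). With TNF over control 3 of the 6 rose, Txnl1 at a log2 fold change of 0.31 (adjusted p = 0.000689), Shfm1 at 0.16 (adjusted p = 0.00328) and Uchl5 at 0.23 (adjusted p = 0.00846), and Adrm1 stood at 0.04 (adjusted p = 0.524). With Fbxl2 siRNA over control 3 rose, with Uchl5 at a log2 fold change of 0.56 (adjusted p = 5.21e-07), and 1 fell: Shfm1 averaged 71.5 ± 1.92 CPM with Fbxl2 siRNA and 91.2 ± 2.03 CPM in control (SD, n = 3 each; log2 fold change -0.35, SE 0.04, edgeR adjusted p = 5.26e-07). Adrm1 stood at a log2 fold change of 0.01 (adjusted p = 0.8) there.

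Among the activators, Psme1 and Psme2, which encode the interferon-inducible cap of the core, averaged 155 ± 7.58 and 229 ± 19.6 CPM with TNF, 129 ± 6.66 and 191 ± 9.14 CPM with Fbxl2 siRNA, 78.2 ± 1.42 and 104 ± 3.75 CPM in control and 64.1 ± 2.05 and 90.4 ± 1.28 CPM in proliferation. Both rose in the 3 main comparisons. With TNF over control Psme1 rose by a log2 fold change of 0.99 (adjusted p = 5.85e-13) and Psme2 by 1.15 (adjusted p = 4.36e-13). With Fbxl2 siRNA over control Psme1 rose by a log2 fold change of 0.72 (adjusted p = 9.45e-11) and Psme2 by 0.88 (adjusted p = 3.27e-11). In control over proliferation Psme1 rose by a log2 fold change of 0.29 (adjusted p = 2.87e-05) and Psme2 by 0.20 (adjusted p = 0.00391). The nuclear activator genes fell with Fbxl2 siRNA over control, Psme3 at a log2 fold change of -0.21 (adjusted p = 0.000726) and Psme4 at -0.21 (adjusted p = 0.00113). Of the 5 genes in this list 4 rose and 1 fell in control over proliferation, 2 rose with TNF, and 2 rose and 2 fell with Fbxl2 siRNA.

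Nfe2l1, the transcription factor gene of the recovery response, had an order of group means unlike that of most proteasome genes. It averaged 420.4 ± 8.50 CPM with TNF, 368 ± 20.7 CPM with Fbxl2 siRNA, 404 ± 4.44 CPM in control and 344 ± 49.8 CPM in proliferation (SD, n = 3 each). Its mRNA was higher in control over proliferation (log2 fold change 0.23, SE 0.07, edgeR adjusted p = 0.00886), where 33 proteasome genes were lower, but with replicate C removed from all groups it no longer passed (adjusted p = 0.0663). Over control it was not called with TNF, at a log2 fold change of 0.06 (adjusted p = 0.541), or with Fbxl2 siRNA, at -0.14 (adjusted p = 0.12). After silencing it was called lower under 3 of 15 alternatives, namely with only the 2 groups fitted (adjusted p = 0.00375), without replicate A in all groups (0.0381) and with a replicate block (0.0406). Its activity is set after translation, which mRNA does not show. Of the 10 genes tested from the list on transcription of proteasome genes, 5 rose and 4 fell in control over proliferation, with the smallest adjusted p for Nfyb at a log2 fold change of -0.58 (adjusted p = 4.32e-09), Mafk at 0.52 (adjusted p = 1.12e-07) and Nfe2l2 at -0.34 (adjusted p = 9.87e-07). With TNF 3 rose and 1 fell, with the smallest adjusted p for the small Maf gene Maff at a log2 fold change of 0.66 (adjusted p = 2.23e-09), and with Fbxl2 siRNA 2 rose and 4 fell, with the smallest adjusted p for the protease gene Ddi2 at -0.44 (adjusted p = 4.97e-07). The shares of all genes called are those given above, and with only 10 genes no difference from them was tested.

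The authors' deposited tables gave calls for the same genes from their own fit, at an adjusted p under 0.05. The authors' deposited table for TNF over control listed 19 of the 34 as higher and 1 as lower, where 24.6% of all its genes with an adjusted p were higher and 23.1% lower. The 19 were not all the same genes, since the authors' deposited table called Psmb1 (adjusted p = 0.0234) and not Psmb2 (0.126), the reverse of the edgeR calls. The authors' deposited table for Fbxl2 siRNA over control listed 28 as higher and 1 as lower, where 29.0% of its genes were higher and 28.8% lower. In that deposited table of the authors Psmc4 was not called (adjusted p = 0.063) and Psmc3 was called lower (0.0182). The authors' deposited table for TNF over proliferation listed 1 as higher and 32 as lower, where 31.3% of its genes were higher and 31.1% lower.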

How the data were processed

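Per the labels' protocols, total RNA of C2C12 cells was sequenced with an Illumina mRNA kit. CASAVA, DESeq2 and the mm10 build are named, without versions, per the submitters' processing notes. Which aligner and counter were used, with which annotation and strand setting, is not given in the sources used here. Every test used the read counts that the authors deposited, whole numbers for 21232 gene rows in each of 12 libraries. They also deposited 3 tables of comparisons with log2 fold changes and adjusted p-values, quoted only where named.

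The tests used edgeR 4.0.16 (limma 3.58.1, R 4.3.3): filterByExpr (12736 genes), TMM, a robust quasi-likelihood fit of 4 group means to 12 libraries (8 residual degrees of freedom), glmQLFTest, and Benjamini-Hochberg adjustment over all genes tested. The fit was run on simulated counts drawn from its own fitted spread, without a shift shared by the genes of a library. How such a shift affects the calls was not tested. SE is the size of the log2 fold change over √F. No 2 replicates agreed within sampling noise, since chi-square per degree of freedom was at least 1.60 for each pair. Intervals cover the fitted spread between libraries.

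Exons, overlaps and coordinates came from GENCODE M21 (GRCm38) and promoters from RefSeq (GRCm38.p6), matched by symbol. Motifs were searched on both strands.

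Full values were given for Psmb5, Psmb6 and Psmb7, for the 3 called genes that rose most and the 3 that fell most, and for the called gene of smallest adjusted p in each role class, in each of the 3 comparisons with or of control. Other lists were given by counts and up to 3 genes of smallest adjusted p, with Fbxl2, Nfe2l1, Pomp, Adrm1, Psmb8, Psmb9 and Psmb10 given whatever their result. Of the lists on shuttle factors and ubiquitin genes the counts and only some members are reported here. The 34 genes and all lists were chosen with earlier results of these data known. Alternatives were RLE size factors, no filter, DESeq2 1.42.0, a replicate block, a fit of only the 2 groups compared, leaving libraries out and, added after seeing the data, library totals alone.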

Additional observations from a re-analysis of the deposited data

How the results depend on the processing

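In the comparison of control with proliferation the counts of 33 lower and 0 higher held under each of the 15 alternatives run. After Fbxl2 silencing, 1 gene (Psmc3) and not 0 was called lower under RLE size factors, on library totals alone, with only the 2 groups compared and by DESeq2. In TNF over Fbxl2 siRNA 17 genes and not 10 were lower on library totals alone. The choice of scaling moved the all-gene median by less than 0.1 on the log2 scale. Leaving libraries out gave ranges of 11 to 19 genes higher with TNF over control, 23 to 30 higher with Fbxl2 siRNA over control, 6 to 11 lower in TNF over Fbxl2 siRNA, 31 to 33 lower in TNF over proliferation and 28 to 31 lower in Fbxl2 siRNA over proliferation. The lowest value of each range came without all libraries of replicate C, a fit with fewer samples. TGACNNNGC in member promoters moved to 3 genes, from 5, in the narrower window. What depth adds to the calls of the lowest genes (23.1 CPM and above) was not tested.

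A fit with a replicate block on the letters A, B and C was run. The labels do not say what a letter shares, although the sample numbers in the titles run together for A and stand apart from those of B and C. Same-letter deviations from the group means correlated between -0.0957 and 0.183 over all genes tested and between -0.700 and 0.632 over the 34 genes, and a library's best match in another group bore its own letter in 12 of 36 cases. Without the A libraries 18 genes rose with TNF and 30 with Fbxl2 siRNA over control. With the replicate block 20 genes rose with TNF over control, Psmb1 being added (adjusted p = 0.0225), 11 were lower in TNF over Fbxl2 siRNA, Nfe2l1 was called lower after Fbxl2 silencing, and the other counts were as reported.

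Log2 fold changes that changed sign were all near 0 and not called under either setting, and the cause was not tested. Under RLE size factors the value over control was Adrm1 -0.015 for Fbxl2 siRNA. On library totals alone the value over control was Psmb6 -0.037, Psmc1 -0.034, Psmd6 -0.0072, Adrm1 -0.016 for TNF and Adrm1 -0.014 for Fbxl2 siRNA. With no filter on low counts the value over control was Psmb6 -0.010, Psmc1 -0.0068 for TNF and Adrm1 -0.017 for Fbxl2 siRNA. With only the 2 groups compared the value over control was Psmb6 -0.014, Psmc1 -0.010 for TNF and Adrm1 -0.0043 for Fbxl2 siRNA. By DESeq2 the value over control was Adrm1 -0.013 for Fbxl2 siRNA. With libraries left out it ranged from -0.028 to 0.0089 for Psmb7 (TNF), -0.066 to 0.011 for Psmd4 (TNF), -0.074 to 0.019 for Psmd3 (TNF), -0.040 to 0.077 for Psmb6 (TNF), -0.080 to 0.0012 for Psmd8 (TNF) and -0.016 to 0.037 for Adrm1 (Fbxl2 siRNA).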

Other observations

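Of 9 tested genes for shuttle factors and the p97 segregase, which feed the proteasome, 7 fell and 0 rose in control over proliferation. With TNF over control 3 rose and 0 fell, and with Fbxl2 siRNA over control 4 rose and 1 fell. Of all tested genes, 38.4% were called higher and 38.9% lower in control over proliferation. The shares were 31.0% and 23.6% in TNF over control, and 34.1% and 29.8% in Fbxl2 siRNA over control. Only some of the 9 genes are named here. In control over proliferation the ubiquitin shuttle factor gene Rad23b fell, at a log2 fold change of -0.61 (adjusted p = 1.36e-10), as did Ubqln1, at -0.28 (adjusted p = 6.17e-06). Vcp, which encodes the p97 segregase, averaged 657 ± 11.8 CPM in control and 749.7 ± 17.0 CPM in proliferation (SD, n = 3 each; log2 fold change -0.19, SE 0.04, edgeR adjusted p = 0.000389). With TNF over control Rad23b rose, at a log2 fold change of 0.21 (adjusted p = 0.000471), and so did Ubqln2, at 0.20 (adjusted p = 0.00188). With Fbxl2 siRNA over control Rad23b rose, at a log2 fold change of 0.32 (adjusted p = 3.83e-06).

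Of 5 tested genes for ubiquitin and its activating enzyme, 1 rose and 3 fell in control over proliferation. With TNF over control 3 rose and 0 fell, and with Fbxl2 siRNA over control 3 rose and 1 fell. The shares of all genes are those just given. Rps27a, which encodes ubiquitin fused to a ribosomal protein, fell in control over proliferation, at a log2 fold change of -0.62 (adjusted p = 2.6e-09), while the polyubiquitin gene Ubb rose, at 0.31 (adjusted p = 8.27e-06). With Fbxl2 siRNA over control the signs were again opposite, with Rps27a at a log2 fold change of 0.68 (adjusted p = 1.61e-09) and Ubb at -0.28 (adjusted p = 4.23e-05). With TNF over control Rps27a rose, at a log2 fold change of 0.36 (adjusted p = 1.44e-05). The tissue-specific core gene Psma8 had no count in any library.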
